A study of Mus musculus with 6 samples.

Results

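The genes described here build motile cilia and carry their cargo. They are the genes on the array whose symbols begin with Dnah, Dnaic, Dnai or Dnali (dynein arms), Tekt (tektins), Rsph (radial spokes), Ift (intraflagellar transport) or Spag (sperm-associated antigens), each followed by the number of the family member where there is one, together with Foxj1, Rfx3, Tppp3, Ccdc113 and Ccdc39. The selection used symbols and no measured value. It took 61 of 41174 probes, which represent 39 of 16358 named genes. Of these 39 genes, 35 were tested, among 12968 genes in all, because a probe for them passed the scanner software's background test on 2 or more arrays. The 4 genes not tested were Rfx3, Rsph6a, Spag6 and Spag11a, the last of which was above background only on tg/tg 1. Ccdc40 and Ak7, which the selection also names, and 22 further genes of the same families have no probe named here.

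Motile cilia of the airway beat to move mucus out of the lung. Their core, the axoneme, is a ring of microtubule doublets around a central pair. Dynein arms on the doublets generate the sliding, radial spokes and the central apparatus pattern it, and tektins run inside the doublet wall. Intraflagellar transport is the traffic of protein trains along the axoneme that supplies the growing tip, and primary cilia, which do not beat, use it as well. Foxj1 is the forkhead transcription factor that switches on the motile cilium genes in multiciliated cells, and RFX factors act on many of the same promoters through a sequence called the X-box.

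Total RNA of whole lung from C57BL/6 mice was labelled with Cy3 and hybridised to 6 Agilent mouse arrays. There were 2 arrays per genotype and 3 genotypes, hCD2-T-bet tg/tg, hCD2-T-bet tg/wt, and WT. The transgene overexpresses T-bet, the T helper 1 transcription factor encoded by Tbx21, in T cells, and the series concerns the pulmonary alveolar proteinosis of these mice. The labels give neither age nor sex, and no other allele or treatment. They do not say whether the 2 arrays of a genotype came from separate animals, so p-values reflect array-to-array spread that may be technical.

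Levels are log2 of the processed signal minus each array's 75th percentile, which lay between 794 and 1204 intensity units, and 62.0% to 66.8% of the probes on an array passed the background test. A level compares one probe across arrays and never one gene with another. Tbx21, the check of the labels, had log2 differences of 3.96 between tg/tg and WT and 2.02 between tg/wt and WT. Replicate arrays correlated at r = 0.996 to 0.997 across genes, which are not independent replicates. One slide and scan (slide 1, scan 1) held the tg/tg and WT arrays and another (slide 2, scan 2) the tg/wt arrays, so slide and genotype cannot be told apart wherever tg/wt is compared. Of 8 lung tissue genes, 8 were above background and tested, among them Sftpc and Scgb1a1.

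To show what the promoters of these genes look like, 6 windows of the 250 bases before an annotated start are printed, taken from RefSeq on GRCm38.p6 and read 5′ to 3′ on the strand of the gene. Of the 35 tested genes, 28 have such a window and 32 windows belong to them. Foxj1, Tppp3, Rsph1, Spag1, Ift80, Ift81 and Ift122 have none in that table and are named only. Capitals mark every match, on either strand, to the X-box pattern GTNNCC, then 0 to 3 bases, then GGNNAC, or to its RFX half-sites GTTGCC and GTTACC. A half-site can lie inside an X-box, and the 6 genes were chosen after the matches had been seen. Tekt1, Tekt2, Dnaic1 and Spag16 are among those that fell in tg/tg lungs, and their printed windows match half-sites but not the full pattern. Variants of the pattern were not searched. In the Spag16 window GTTGCC is followed by gtagtaac, which differs from the pattern only in an A for the first G of GGNNAC. In the Dnaic1 and Tekt2 windows gttgct stands before a marked half-site, with a T for the last C of GTNNCC. Spag5 is the one that was higher in tg/tg than in WT, and Ift57, which differed by -0.17, holds 2 full matches to the pattern. Dnali1 (-1.93) and Spag6l (-1.85) fell as well, and their windows hold no match, nor do those of Dnah11, Dnah5, Ccdc39, Ift43 and Ift88. Tekt1 and Tekt2 each have another window with no match.
Tekt1, chr11:72361883-72362132, minus strand: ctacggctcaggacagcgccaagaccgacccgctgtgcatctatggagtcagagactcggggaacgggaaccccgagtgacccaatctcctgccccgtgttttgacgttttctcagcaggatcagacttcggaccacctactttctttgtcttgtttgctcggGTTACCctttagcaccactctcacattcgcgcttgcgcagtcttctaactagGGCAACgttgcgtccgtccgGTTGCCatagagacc
Tekt2, chr4:126325647-126325896, minus strand: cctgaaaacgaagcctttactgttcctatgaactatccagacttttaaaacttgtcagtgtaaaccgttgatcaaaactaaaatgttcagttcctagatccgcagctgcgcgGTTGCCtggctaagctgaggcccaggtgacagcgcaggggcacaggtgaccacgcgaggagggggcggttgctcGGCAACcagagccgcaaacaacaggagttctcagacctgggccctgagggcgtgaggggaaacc
Dnaic1, chr4:41569544-41569793, plus strand: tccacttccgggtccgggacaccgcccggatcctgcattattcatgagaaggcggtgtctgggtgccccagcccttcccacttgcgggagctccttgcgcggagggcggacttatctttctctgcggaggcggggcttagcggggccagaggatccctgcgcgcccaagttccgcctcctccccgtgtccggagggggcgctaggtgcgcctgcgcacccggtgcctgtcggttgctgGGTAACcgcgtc
Spag16, chr1:69826720-69826969, plus strand: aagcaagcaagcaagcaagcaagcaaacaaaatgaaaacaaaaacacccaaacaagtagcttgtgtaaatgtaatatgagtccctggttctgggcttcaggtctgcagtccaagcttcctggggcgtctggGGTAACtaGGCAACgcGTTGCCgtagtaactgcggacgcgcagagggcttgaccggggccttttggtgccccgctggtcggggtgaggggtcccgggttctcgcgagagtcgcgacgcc
Spag5, chr11:78301341-78301590, plus strand: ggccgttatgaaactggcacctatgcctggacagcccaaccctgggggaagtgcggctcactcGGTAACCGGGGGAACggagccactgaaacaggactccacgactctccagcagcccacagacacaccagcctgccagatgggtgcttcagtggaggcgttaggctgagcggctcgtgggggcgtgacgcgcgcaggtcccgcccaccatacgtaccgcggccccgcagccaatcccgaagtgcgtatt
Ift57, chr16:49699044-49699293, plus strand: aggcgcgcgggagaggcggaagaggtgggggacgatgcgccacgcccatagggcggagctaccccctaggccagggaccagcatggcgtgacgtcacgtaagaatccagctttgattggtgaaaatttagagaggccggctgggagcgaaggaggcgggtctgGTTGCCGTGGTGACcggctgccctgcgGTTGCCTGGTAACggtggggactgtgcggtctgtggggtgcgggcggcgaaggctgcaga

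A full match to the X-box pattern was found in 3 of the 32 windows (9.38%), those of Ift57, Ift22 and Spag5, against 3.87% of 13216 windows of all tested genes. Their log2 differences between tg/tg and WT were -0.17, -0.02 and 1.83. Whether matches go with the fall was not tested. A half-site, GTTGCC or GTTACC, was present in 11 of the 32 windows (34.4%), against 15% of the windows of all tested genes and 15.7% of all 32841 windows. In the Tekt1 window the half-sites begin 87, 35 and 15 bases before the start, and in the Spag16 window 119, 111 and 103 bases before it. Tekt2 has overlapping windows from several annotated starts, so its matches are not independent. The forkhead sequence GTAAACA was found in 0 of the 32 windows, against 2.32% of the windows of all tested genes. A match describes these letters only, and the array gives no measure of binding.

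Motile cilium genes were lower in tg/tg than in WT lungs. Of the 35 tested, 30 were lower and 1 was higher at a limma adjusted p under 0.05, and 4 did not pass. Of all 12968 genes tested, 40.8% were lower and 33.8% higher in the same comparison. The median log2 difference was -0.77 over the 35 genes and -0.05 over all genes. The 21 genes outside intraflagellar transport had a median of -1.54 and the 14 of intraflagellar transport one of -0.51. In RNA from a whole organ, fewer ciliated cells and less of these RNAs per cell cannot be told apart.

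Foxj1 lay at log2 1.86 and 1.91 in tg/tg, 2.54 and 2.57 in tg/wt, and 2.83 and 2.73 in WT. The groups did not overlap, and the level was lowest in tg/tg and highest in WT. It was 1.85-fold lower in tg/tg than in WT, a log2 difference of -0.89 (SE 0.0470, limma adjusted p = 5.72e-05), and 1.17-fold lower in tg/wt than in WT (-0.22, adjusted p = 0.0298). The tg/wt call did not hold when any one tg/wt or WT array was left out (-0.17 to -0.27). Rfx3, the other transcription factor selected, has 2 probes, and neither passed the background test on an array.

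All 5 tested dynein arm genes were lower in tg/tg than in WT. Dnali1, a light intermediate chain of the inner arms, lay at -0.09 and 0.00 in tg/tg, 1.34 and 1.24 in tg/wt, and 1.92 and 1.86 in WT. It was the most changed of them, 3.81-fold lower in tg/tg than in WT (-1.93, SE 0.0569, limma adjusted p = 8.50e-06). Dnaic1, an intermediate chain of the outer arms, lay at -1.61 and -1.68 in tg/tg, -0.41 and -0.36 in tg/wt, and 0.12 and 0.12 in WT. Its 3 groups did not overlap, with a 3.39-fold lower level in tg/tg than in WT (-1.76) and a 1.42-fold lower level in tg/wt than in WT (-0.50).

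The outer arm heavy chains, which carry the ATPase, followed 2 courses. Dnah11 lay at -2.44 and -2.30 in tg/tg, -1.17 and -1.09 in tg/wt, and -0.83 and -0.80 in WT, and was 2.95-fold lower in tg/tg than in WT. Dnah8, best known from sperm flagella, lay at -2.37 and -2.37 in tg/tg, -0.41 and -0.42 in tg/wt, and -0.75 and -0.76 in WT. Dnah8 was therefore lowest in tg/tg and highest in tg/wt: 3.07-fold lower in tg/tg than in WT (-1.62, limma adjusted p = 2.72e-06), and at 1.26 times the WT level in tg/wt (0.34, adjusted p = 0.00333). It was the only dynein arm gene called higher in tg/wt. Another Dnah8 probe was not above background on any array and was not tested, so this course rests on a single probe. Dnah5, the outer arm heavy chain most often mutated in human primary ciliary dyskinesia, lay at -5.62 and -5.05 in tg/tg, -4.14 and -3.94 in tg/wt, and -3.80 and -4.00 in WT. Its tg/tg arrays were lowest (-1.44 against WT), but only 1 of the 2 passed the background test. With another tested Dnah5 probe the difference from WT was -1.03, but tg/tg and tg/wt overlapped (-0.28, limma adjusted p = 0.255).

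Tekt1 and Tekt2, filament proteins of the doublet microtubules, were both lower. Tekt1 lay at 1.95 and 2.03 in tg/tg, 3.02 and 2.97 in tg/wt, and 3.52 and 3.55 in WT. Tekt2 lay at 0.10 and 0.19 in tg/tg, 1.58 and 1.55 in tg/wt, and 1.84 and 1.84 in WT. For each of them the 3 groups were separate on every array, with tg/tg 2.92-fold below WT for Tekt1 (-1.54) and 3.24-fold below WT for Tekt2 (-1.70).

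The 3 tested radial spoke genes were lower in tg/tg than in WT as well. Rsph1, a protein of the spoke head, lay at -1.29 and -1.21 in tg/tg, -0.61 and -0.38 in tg/wt, and 0.34 and 0.39 in WT. It was 3.07-fold lower in tg/tg than in WT (-1.62, SE 0.0862) and had the largest fall of all 35 genes in tg/wt, 1.82-fold (-0.86, limma adjusted p = 0.00432). Rsph9, a second head protein, fell less: 2.28 and 2.35 in tg/tg, 2.52 and 2.51 in tg/wt, and 2.95 and 2.93 in WT. Rsph3a, a stalk protein, lay at 4.66 and 4.67 in tg/tg, 4.93 and 4.95 in tg/wt, and 5.19 and 5.17 in WT. The differences between tg/tg and WT were -0.63 for Rsph9 and -0.51 for Rsph3a. The probe for Rsph3a may also bind RNA of its near-identical copy Rsph3b, so that value is uncertain. Of 3 tested Rsph3a probes, 2 were called lower in tg/tg than in WT, and the remaining probe (-0.24) did not pass.

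Tppp3, a tubulin-binding protein abundant in ciliated cells, had the largest difference of the 35. It lay at 2.46 and 2.60 in tg/tg, 4.61 and 4.65 in tg/wt, and 4.75 and 4.71 in WT. The level was 4.60-fold lower in tg/tg than in WT (-2.20, SE 0.0584, limma adjusted p = 6.29e-06), while the difference between tg/wt and WT was -0.10 (adjusted p = 0.261). Ccdc113, a ciliary coiled-coil protein, lay at 0.38 and 0.36 in tg/tg, 1.35 and 1.36 in tg/wt, and 1.91 and 1.92 in WT. Ccdc39, part of the axonemal ruler that sets the repeat of arms and spokes, lay at -3.21 and -3.26 in tg/tg, -2.24 and -2.17 in tg/wt, and -1.91 and -1.90 in WT. Both had 3 separate groups, with tg/tg 2.92-fold below WT for Ccdc113 (-1.54) and 2.52-fold below WT for Ccdc39 (-1.33).

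**Figure D1:**
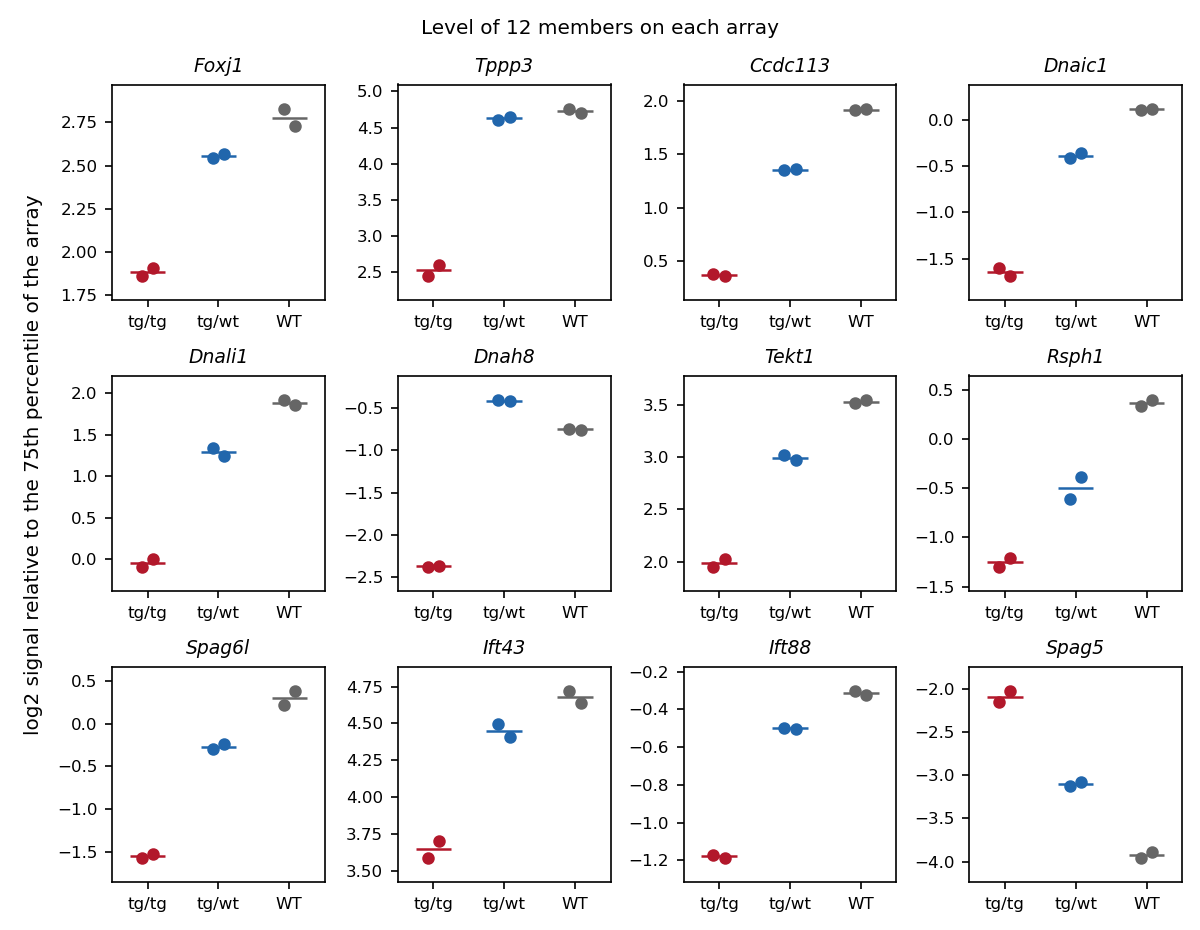
Level (log2 signal relative to the array's 75th percentile) of 12 of the genes on each array, with tg/tg in red on the left, tg/wt in blue and WT in grey; points are arrays, lines are group means, and each panel has its own axis. Dnah8 is highest in tg/wt, Tppp3 differs between tg/wt and WT by -0.10 only, and Spag5 runs the other way.

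The 7 tested sperm-associated antigens share a name and not a function. In tg/tg against WT 4 of them were lower, 1 was higher and 2 did not pass. Spag6l and Spag16 encode proteins of the central apparatus. Spag6l lay at -1.57 and -1.53 in tg/tg, -0.30 and -0.24 in tg/wt, and 0.22 and 0.38 in WT. Spag16 lay at -4.54 and -4.40 in tg/tg, -3.22 and -3.27 in tg/wt, and -3.02 and -3.03 in WT. Both were lower in tg/tg than in WT, Spag6l 3.60-fold (-1.85) and Spag16 2.74-fold (-1.45). Spag6l has a near-identical copy, Spag6, whose own probe was not above background on any array.

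Spag5 encodes astrin, a protein of the mitotic spindle, and is not a cilium gene. It lay at -2.16 and -2.03 in tg/tg, -3.12 and -3.07 in tg/wt, and -3.95 and -3.89 in WT. The level was highest in tg/tg and lowest in WT, with a level 3.55 times that of WT in tg/tg (1.83, SE 0.0570, limma adjusted p = 1.03e-05) and 1.77 times that of WT in tg/wt (0.82, adjusted p = 0.00157). Of 17 other mitosis genes tested, 16 were higher in tg/tg than in WT, with a median of 1.87, among them Ccnb1 (2.65) and Cdk1 (2.16). Their summed level was 21.9 to 22.3 times the 75th percentile in tg/tg, 9.88 to 10.1 in tg/wt and 6.56 to 6.63 in WT. Their part in the Spag5 result was not tested.

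Spag1, an assembly factor for dynein arms, had a difference of -0.08 between tg/tg and WT, and Spag7 one of -0.08; neither passed the test. Spag9, a scaffold protein of JNK signalling and vesicle motors, was called lower by 0.14, but its 3 probes disagreed, since the other probes gave 0.71 and 0.65 and were called higher. Spag4, a nuclear envelope protein known from spermatids, lay at -7.65 and -6.32 in tg/tg, -5.61 and -6.50 in tg/wt, and -5.21 and -5.55 in WT. It was called at a limma adjusted p = 0.0414 although 0 of 2 tg/tg and 1 of 2 WT arrays were well above background, so no fold is given. The call was lost with a floor on low values, where the difference was 0.0395, and when any array but tg/tg 2 was left out (-1.78 to -0.95). The call of Spag9 was lost without WT 1 (-0.15) or WT 2 (-0.13).

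Of the 14 intraflagellar transport genes, all tested, 12 were lower in tg/tg than in WT and 2 did not pass, by limma. Their differences ran from -1.03 to 0.10, against -1.93 to -1.44 for the 5 dynein arm genes. Trains consist of complex A, which returns proteins from the tip, and complex B, which carries them out. All 3 complex A genes were lower (median -0.66), as were 5 of 7 core genes of complex B (median -0.36) and 4 of 4 peripheral genes of complex B (median -0.42).

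In complex A, Ift43 lay at 3.59 and 3.70 in tg/tg, 4.50 and 4.41 in tg/wt, and 4.72 and 4.64 in WT. Ift122 lay at 1.90 and 2.06 in tg/tg, 2.61 and 2.62 in tg/wt, and 2.63 and 2.65 in WT. The 2 tg/tg arrays lay below all others for both genes, while the tg/wt and WT means of Ift122 differed by -0.03 (limma adjusted p = 0.728). Ift43 was 2.04-fold and Ift122 1.58-fold lower in tg/tg than in WT.

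In the core of complex B, Ift88, the gene mutated in the Tg737 polycystic kidney mouse, lay at -1.17 and -1.19 in tg/tg, -0.50 and -0.51 in tg/wt, and -0.30 and -0.32 in WT. Ift81, which binds tubulin with Ift74, lay at -0.48 and -0.54 in tg/tg, 0.17 and 0.26 in tg/wt, and 0.22 and 0.31 in WT. Ift88 was 1.82-fold lower in tg/tg than in WT with 3 separate groups, and Ift81 was 1.71-fold lower with tg/wt and WT overlapping. On the other Ift81 probe tg/wt and WT did not overlap, and tg/wt was called lower (-0.28, limma adjusted p = 0.0231). Ift52, also of the core, lay at 1.10 and 1.08 in tg/tg, 1.02 and 1.11 in tg/wt, and 0.97 and 1.02 in WT. It was the one transport gene with a positive difference (0.10, SE 0.0458, limma adjusted p = 0.0976), and Ift22, a small GTPase of the same core, had one of -0.02.

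The remaining transport genes called lower in tg/tg had differences between -0.64 for Ift172 and -0.14 for Ift27. Genes with several probes did not always give one size. Ift46 was lower by 0.36 with the probe that represents it and by 1.25 with the other, and of 3 probes for Ift57 1 was called lower. The call of Ift57 was lost without WT 1 (-0.16) or WT 2 (-0.17), and that of Ift27 without tg/tg 2 (-0.13) or WT 2 (-0.12). Both probes of Ift52 had positive differences and neither was called.

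**Figure D2:**
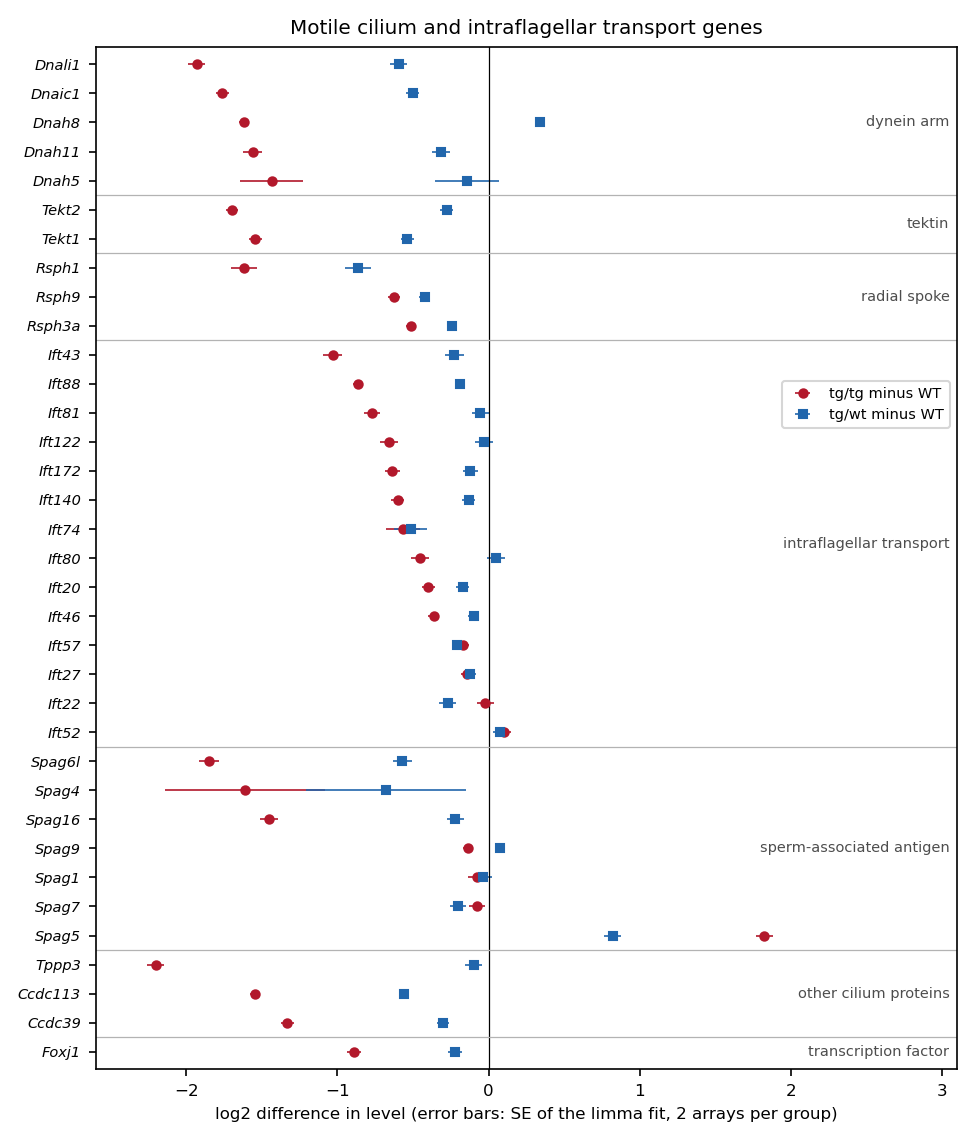
Log2 difference of each of the 35 genes, tg/tg minus WT (red circles) and tg/wt minus WT (blue squares), grouped by role, with standard errors of the limma fit from 2 arrays per group. In tg/tg the dynein arm genes lie between -1.93 and -1.44, intraflagellar transport genes between -1.03 and 0.10, and Spag5 lies at 1.83; both comparisons use the same WT arrays.

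In tg/wt lungs, 18 of the 35 genes were lower than in WT and 2, Spag5 and Dnah8, were higher by limma, and 15 did not pass. Of all genes, 14.6% were lower and 13.4% higher in that comparison. The median log2 difference was -0.21 over the 35 genes and -0.005 over all genes. The lower count depended on single arrays: it was 11 without tg/wt 1, 9 without tg/wt 2, 7 without WT 1 and 7 without WT 2, and it was 17 without either tg/tg array. Called lower under each of these were Rsph1, Dnali1, Spag6l, Ccdc113, Tekt1, Dnaic1 and Rsph9, and Spag5 and Dnah8 stayed called higher. The lower count was 9 or 12 when arrays were centred on pan-epithelial genes instead. The 2 tektins and 3 radial spoke genes were all lower, with 3 of 5 dynein arm genes and 5 of 14 transport genes, namely Ift74, Ift22, Ift57, Ift88 and Ift20. For Rsph3a the other probes gave -0.13 and -0.02 and did not pass, and its call was lost when probes were averaged. For these 5 transport genes the differences ran from -0.52 to -0.17, and each of the 5 lost its call without WT 1 and likewise without WT 2.

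Against tg/wt, 26 of the 35 genes were lower in tg/tg and 2, Spag5 and Ift22, were higher, with 7 not passing by limma. Of all genes, 40.2% were lower and 34% higher. The median was -0.67 over the 35 genes and -0.05 over all genes. For Tppp3 and Dnah8 the tg/tg to tg/wt differences were -2.10 and -1.95, and for Rsph1 and Rsph9 they were -0.75 and -0.20. Ift22 was higher by 0.25 (limma adjusted p = 0.0115), a call not kept when tg/tg 2 (0.23) or tg/wt 2 (0.21) was left out. With the arrays centred on the median level of the pan-epithelial genes Ift22 was instead called lower (-0.45), and with their median deviation it was not called (0.11). The median level came from different genes on the tg/tg and tg/wt arrays, as described below.

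Other cilium genes, which the selection by symbol did not take, were counted from lists assembled by function. All 7 tested genes of dynein arm docking and assembly were lower in tg/tg than in WT (median -1.22). Dnaaf1 lay at -1.37 and -1.40 in tg/tg, -0.14 and -0.18 in tg/wt, and 0.42 and 0.44 in WT, a 3.53-fold lower level in tg/tg than in WT. All 11 tested genes of the nexin-dynein regulatory complex and central apparatus were lower (median -1.55). Drc1, a subunit of that complex, lay at 1.84 and 1.87 in tg/tg, 3.19 and 3.15 in tg/wt, and 3.84 and 3.78 in WT. Hydin, a giant central pair protein, lay at -1.48 and -1.43 in tg/tg, -0.08 and 0.03 in tg/wt, and 0.41 and 0.42 in WT. Of 24 further structural genes, 24 were lower, led by Sec14l3 (-2.31), Wdr63 (-2.22), Riiad1 (-1.92) and Morn5 (-1.86).

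Genes that motile and primary cilia share had medians nearer to 0. Among 14 other transport and motor genes, 12 were lower and 2 higher in tg/tg than in WT (median -0.59). The retrograde motor chain Dync2h1 was lower by 0.94 and the complex A gene Wdr35 by 0.92, whereas the kinesin gene Kif3b was higher by 0.32. Of 25 genes of the BBSome and ciliary base, 18 were lower and 3 higher (median -0.66), with Cc2d2a (-1.37) and Rpgrip1l (-1.30), both of the transition zone, at the low end. In tg/wt against WT, 6 of 7 docking and assembly genes, 9 of 11 nexin and central apparatus genes and 22 of 24 further structural genes were lower, beside 14.6% of all genes. The counts were 2 of 14 (14.3%) for transport and motor genes, near the share of all genes, and 7 of 25 (28%) for genes of the BBSome and base, and the lists were not tested against each other.

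Of 17 symbols listed for the multiciliation programme, 8 were on the array and tested. Mcidas, Gmnc, Ccno, Foxn4 and Cdc20b were among those with no probe named here, so the start of the programme was covered only in part. The 8 tested did not move as a block: 5 (62.5%) were lower and 2 (25%) higher in tg/tg than in WT, beside 40.8% and 33.8% of all genes. In tg/wt 0 of the 8 were called against WT by limma, with 2, E2f4 and Plk4, at an unadjusted p under 0.05. Of all genes, 14.6% were called lower and 13.4% higher in that comparison. Myb, also of this list, was not well above background on either tg/tg array. Mycl, a Myc family factor, lay at -2.19 and -2.07 in tg/tg, -0.28 and -0.26 in tg/wt, and -0.18 and -0.22 in WT. Trp73, the p73 factor that acts upstream of Foxj1, lay at -2.70 and -2.75 in tg/tg, -1.94 and -1.93 in tg/wt, and -1.87 and -2.07 in WT. For both, the tg/tg arrays lay below all others, and tg/wt and WT means differed by -0.07 for Mycl and 0.04 for Trp73. Plk4, the kinase of centriole duplication, was higher by 0.41 and E2f4 by 0.34, and Deup1, a gene of the deuterosome that makes centrioles in multiciliated cells, was lower by 0.40.

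**Figure D3:**
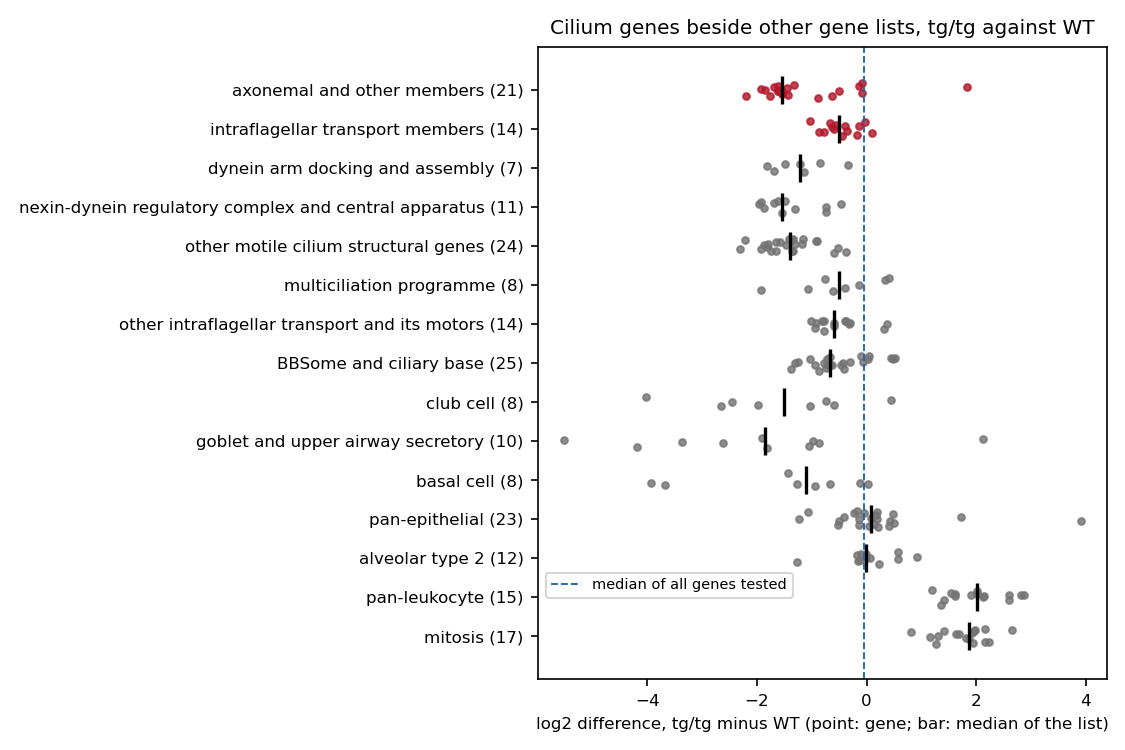
Log2 difference, tg/tg minus WT, of each tested gene (points) in the cilium genes described (red) and in other lists (grey), with the number tested in parentheses, the median of each list as a black bar and the median of all genes as a dashed line. The medians of the motile cilium lists lie between -1.55 and -1.22, those of the shared cilium lists between -0.66 and -0.51, that of pan-epithelial genes at 0.08, and those of leukocyte and mitosis genes at 2.01 and 1.87.

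Genes of other airway cells were counted beside a share of 40.8% lower and 33.8% higher over all genes. Of 8 club cell genes, 7 were lower and 1, Hp, was higher in tg/tg than in WT, and their summed level was 1009 to 1085 in tg/tg, 1448 to 1745 in tg/wt and 1791 to 1800 in WT, in units of the 75th percentile. Of 10 goblet and upper airway secretory genes, 9 were lower and 1, Tff1, was higher, with summed levels of 40.0 to 40.7 in tg/tg, 78.8 to 82.7 in tg/wt and 182 to 184 in WT. Of 8 basal cell genes, 6 were lower and 2, Trp63 and Krt17, did not pass, with sums of 0.804 to 0.837 in tg/tg, 0.869 to 0.918 in tg/wt and 2.06 to 2.12 in WT. For the 35 cilium genes the sums were 121 to 123 in tg/tg, 178 on both tg/wt arrays and 204 to 207 in WT. The part of these lists in the cilium result was not tested.

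Of 23 pan-epithelial genes, 9 (39.1%) were lower and 9 higher in tg/tg than in WT (median 0.08), near the shares of 40.8% and 33.8% over all genes. In tg/wt against WT, 10 of the 23 (43.5%) were lower and 0 higher (median -0.17). Beside them, 14.6% of all genes were lower and 13.4% higher in that comparison, and 51.4% of the 35 cilium genes were lower (median -0.21). The summed levels of the pan-epithelial genes were 270 in tg/tg, 201 to 205 in tg/wt and 226 to 236 in WT. Epcam lay at 1.06 and 1.23 in tg/tg, 0.97 and 0.90 in tg/wt, and 0.95 and 0.98 in WT. Foxa1, a forkhead factor of airway and gland epithelium, was lower by 1.07. Of 7 neuroendocrine and tuft cell genes, 4 (57.1%) were lower and 2 (28.6%), Calca and Dclk1, higher. Of 12 alveolar type 2 genes, 3 (25%) were lower and 4 (33.3%) higher, and of 8 alveolar type 1 genes 7 were lower and 1 higher.

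All 15 leukocyte genes were higher in tg/tg than in WT (median 2.01), with summed levels of 182 in tg/tg, 60.5 to 60.9 in tg/wt and 43.7 to 43.9 in WT. All 9 tested heart muscle genes were lower (median -4.29), with sums of 13.5 to 13.9 in tg/tg, 114 to 115 in tg/wt and 232 to 236 in WT. Of 6 airway cartilage genes, 2 (33.3%) were higher, near the 33.8% of all genes, and 4 did not pass. Those called higher were Col2a1 (0.71) and Col11a2 (0.86). Col2a1, Col11a2, Acan, Comp and Col9a2 were above background on every array, whereas Matn1, Matn3 and Cnmd of the same list were not above it on any. The part of leukocytes, heart muscle and cartilage in the cilium result was not tested. Of 15 genes of testis germ cells, 11 were not tested for want of signal. Of the remaining 4, 1 (25%) was higher (Prm1) and 1 (25%) lower (Tnp1), beside 33.8% and 40.8% of all genes.

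With the arrays centred on the 23 pan-epithelial genes, 34 of the 35 genes were called lower in tg/tg than in WT when the median level of the list was used and 30 when the median deviation of its genes was used. The median level was that of Spint1 on the tg/tg arrays (1.66 and 1.61) and of Epcam on the WT (0.95 and 0.98) and tg/wt arrays. That centring therefore sets different genes against each other. The median deviations were 0.05 and 0.07 in tg/tg and 0.02 and 0.003 in WT. Over all genes, 54.7% of calls were lower in tg/tg than in WT, against 86.8% and 58.5% with these centrings. For tg/wt against WT the shares were 52.1%, against 41.8% and 24.7%, and for tg/tg against tg/wt 54.2%, against 88.1% and 65.8%. Within slide 1 alone, 30 of the 31 calls in tg/tg against WT were kept, all but Spag4.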

How the data were processed

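Lung RNA was measured on 6 one-colour arrays. The deposited processed signal is a linear intensity that, per the file headers, Agilent Feature Extraction 9.5.3.1 had background-subtracted and detrended array by array; the submitters' processing notes name version 9.1. Probes were named by matching their accession to RefSeq transcripts (22951 of 41174 probes).

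This signal was divided by the 75th percentile of its array and put on a log2 scale. Control spots and outlier-marked spots were left out, saturated spots were kept and spots of a probe were averaged. A probe was tested where 2 or more arrays had it well above background, and the probe with the highest mean represented its gene (12968 genes). All 6 arrays entered one limma 3.58.1 model of group means (R 4.3.3, data.table, version 1.17.8), with Benjamini-Hochberg adjustment over all genes and a threshold of 0.05. Precision is limited by having 2 arrays per group.

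The genes, the 19 other lists and the tests were chosen with earlier results of these data known. The genes given per array were Foxj1, Tppp3, Ccdc113 and Ccdc39, up to 4 called genes of each other role with the largest differences or going against their role, and those with the largest differences in tg/wt. Dnah5, Ift20, Ift22, Ift46, Ift74, Ift57, Ift172, Ift27, Spag1, Spag7 and Spag9 were named in addition after their values were seen. From each other list, genes were named among those with the largest differences, and the remaining names were chosen after their values were seen. Lists are described by counts and medians, with no set test.

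Same-numbered arrays of different genotypes had deviations that correlated at -0.0458 (tg/tg with tg/wt), -0.0480 (tg/tg with WT) and 0.129 (tg/wt with WT), so the numbers were not taken as pairs. Planned normexp correction on the mean signal used the median signal, the column present in the files used here, with offset 50. Alternatives were other scalings, background, filters, floor, probe rules, variance models, the deposited series values, slide 1 alone, a replicate block and leaving out each array. Plots used Python 3.11.15 with matplotlib 3.10.9.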

Additional observations from a re-analysis of the deposited data

How the results depend on the processing

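Of the summaries of the 35 genes, 161 values under alternatives stayed within the limits set by the main value and 22 moved. Under the alternatives run, the 35 genes kept a negative median in each comparison. In tg/tg against WT the median was -1.44 when arrays were centred on the median pan-epithelial level, -0.64 with normexp, -0.64 without the filter on dim probes, -0.72 with the filter at 4 arrays, -0.66 with a floor and -0.67 with the series values. Averaging the probes of each gene gave 2 genes higher, since Spag9 turned (0.41 against WT, 0.27 against tg/wt), as it did over its single probes (0.65 and 0.47). In tg/wt against WT, 9 genes were lower with that centring, and leaving out one array gave 7 to 17. A centring on the deviations of the pan-epithelial genes, chosen after seeing the data, gave a median of -0.11. In tg/tg against tg/wt the median was -1.37 with the first centring, -0.81 with the second, -0.48 with normexp and -0.57 without the filter, and leaving out one array gave -0.69 to -0.56. Genes higher there numbered 1 with either centring and 1 to 3 with one array left out. Ift52 turned with the first centring, to -0.57 (tg/tg against WT) and -0.67 (tg/tg against tg/wt), and in the second of these comparisons so did Ift22 (-0.45), Ift57 (-0.66) and Spag7 (-0.57). Ift57 was -0.10 there with the second centring. Spag4 turned in tg/tg against WT with a floor (0.0395) and with the series values (0.0594). Over all genes, the first centring gave 10185 lower and 1548 higher in tg/tg against WT (5297 and 4388 as reported), 928 lower in tg/wt against WT (1887), and 10335 lower and 1401 higher in tg/tg against tg/wt (5217 and 4404). In tg/wt against WT the filter left off gave 1208 lower, the second centring 1016 lower and 3094 higher (1732), and leaving out an array of tg/wt or WT 595 to 888 lower and 746 to 919 higher. A replicate block kept 16 of 20 calls in tg/wt against WT, without Foxj1, Ift20, Ift74 and Spag16, and 30 of 31 in tg/tg against WT, without Spag4. The first centring subtracts the level of Spint1 on the tg/tg arrays and of Epcam on the others. Other causes were not tested. Dim probes, such as those of Dnah5 and Spag4, limit what can be said of low genes.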

Other observations

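Clca1, a secreted protein of mucous cells, lay at log2 -1.12 and -1.02 in tg/tg, -0.52 and -0.60 in tg/wt, and 4.45 and 4.44 in WT. Bpifb1, an antimicrobial protein of the upper airway, lay at -0.33 and -0.23 in tg/tg, 1.76 and 1.74 in tg/wt, and 3.11 and 3.06 in WT. Krt5, a keratin of basal cells, lay at -3.08 and -4.13 in tg/tg, -3.97 and -3.84 in tg/wt, and -2.34 and -2.35 in WT. Krt5 was thus lower in both transgenic groups than in WT, and the tg/tg and tg/wt arrays overlapped. Reg3g, a lectin of epithelial defence, lay at 2.56 and 2.48 in tg/tg, 1.68 and 1.68 in tg/wt, and 3.40 and 3.37 in WT, and was lowest in tg/wt. These 4 genes were chosen after their values were seen.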
